A study of Mus musculus with 6 samples.

Results

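The NF-kB transcription factors and the IkB proteins that restrain them were followed through 9 genes: the subunits Rela, Rel, Relb and Nfkb2, the classical inhibitors Nfkbia, Nfkbib and Nfkbie, and the nuclear IkB proteins Nfkbiz and Bcl3. Nfkb1 and Nfkbid, also of this family, were not among the 9, and results for the family below are for these 9 genes. The genes were taken by symbol, using every probe set whose single gene symbol was 1 of the 9. This gave 18 of the 45101 probe sets on the array, and the brightest probe set of each gene was its main value. All 9 genes were among the 12918 genes tested, and 17 of their 18 probe sets passed the filter on dim signals.

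RNA came from mouse embryo fibroblasts, the matrix-producing cells that grow out when an embryo is put into culture. The embryos, of embryonic day 15.5, were ICR, an outbred strain. There were 2 cultures, each from a separate embryo, and each was measured in 3 groups on 1-colour Affymetrix mouse arrays, giving 6 arrays. Control cells stayed at 37 °C with no added agent. LPS cells received lipopolysaccharide (a coat molecule of Gram-negative bacteria) at 1 μg/ml for 4 h. HS+LPS cells were first heated at 42 °C for 1 h and then received LPS for 4 h, at a dose the labels do not restate for this group. No group with heat alone was analysed here, so HS+LPS against LPS cannot separate an effect of heat by itself from an effect of heat on the response to LPS. The title names the purpose, finding inflammatory genes that heat shock holds down. In such bulk RNA, fewer cells of a type and less RNA per cell cannot be told apart.

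NF-kB is a family of dimeric transcription factors. In resting cells the classical inhibitors IkB-alpha, IkB-beta and IkB-epsilon, encoded by Nfkbia, Nfkbib and Nfkbie, bind the dimers and hold them in the cytosol. LPS sensed by Toll-like receptor 4 activates a kinase complex that marks these inhibitors for destruction, and the freed dimers enter the nucleus and switch on inflammatory genes. Several of the family's own genes are known targets of NF-kB, so that new inhibitor is made and the signal ends. The nuclear IkB proteins IkB-zeta (Nfkbiz) and Bcl-3 act differently, joining dimers on DNA and raising or lowering transcription of chosen targets.

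Because the family is known to regulate itself through kappa B sites, promoters are shown first, chosen as those with a match before the transcription start. RefSeq promoter windows (build GRCm38.p6, 250 bases before to 50 bases after a transcription start) were matched for 7 of the 9 genes, with 9 windows in all. Nfkbiz and Relb were not matched. The kappa B consensus was searched on both strands, where a site and its reverse complement can overlap. It was found in windows of 5 of the 7 genes (Nfkbia, Nfkbie, Bcl3, Nfkb2 and Rel), and in 9.55% of all 27025 genes with such windows (8.46% of 32851 windows). Nfkb2 has 3 windows. That of Bcl3 lay 3 to 12 bases after the start. No match lay in the windows of Nfkbib and Rela. The paired heat shock element GAANNTTC, the same on both strands, was found in the window of Rel alone, downstream of the start, and in 7.86% of all windows. The 250 bases before the start are given below 5′ to 3′ on the strand of the gene, with kappa B matches in capitals: Nfkbia at chr12:55492648-55492897 (minus strand), Nfkbie at chr17:45555450-45555699 (plus strand), the first of the 3 windows of Nfkb2 at chr19:46304487-46304736 (plus strand), and Rel at chr11:23770970-23771219 (minus strand).
Nfkbia: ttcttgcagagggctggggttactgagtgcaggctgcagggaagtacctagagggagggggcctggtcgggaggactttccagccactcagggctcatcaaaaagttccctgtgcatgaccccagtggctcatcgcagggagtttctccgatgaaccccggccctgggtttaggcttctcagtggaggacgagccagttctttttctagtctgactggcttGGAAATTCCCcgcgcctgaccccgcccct
Nfkbie: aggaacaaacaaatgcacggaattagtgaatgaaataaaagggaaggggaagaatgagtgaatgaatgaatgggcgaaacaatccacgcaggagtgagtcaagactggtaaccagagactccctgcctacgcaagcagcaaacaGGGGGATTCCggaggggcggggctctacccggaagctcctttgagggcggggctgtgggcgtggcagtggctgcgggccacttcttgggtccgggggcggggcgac
Nfkb2: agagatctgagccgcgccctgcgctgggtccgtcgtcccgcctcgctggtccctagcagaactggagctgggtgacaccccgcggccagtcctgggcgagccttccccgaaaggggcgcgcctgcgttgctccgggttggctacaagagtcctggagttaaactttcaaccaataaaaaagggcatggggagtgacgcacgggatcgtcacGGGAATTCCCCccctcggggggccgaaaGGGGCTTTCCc
Rel: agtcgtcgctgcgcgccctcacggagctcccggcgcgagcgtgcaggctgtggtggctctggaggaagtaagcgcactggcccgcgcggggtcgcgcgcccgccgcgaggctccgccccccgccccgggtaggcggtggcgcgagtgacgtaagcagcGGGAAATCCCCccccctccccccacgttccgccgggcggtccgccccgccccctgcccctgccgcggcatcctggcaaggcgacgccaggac

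In Nfkbia the match lay 29 to 20 bases before the start and in Nfkbie 106 to 97 bases before it. The Nfkb2 window held matches from 39 to 29 and from 11 to 2 bases before the start, overlapping ones counted together. The match in Rel lay 92 to 82 bases before the start. Matches to these letters describe the sequence and do not show binding.

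The deposited values are linear scaled intensities, and signals below are in these units as mean ± SD (n = 2 cultures). Array medians were 11.9 to 14.4 and the highest signals 6931 to 8434. Fibroblast markers, including collagens and Pdgfra, were above the noise level (the brightest of 27 bacterial control probe sets, 6.0 to 7.67 per array) on every array for 12 of 12 genes. From LPS to HS+LPS 1 of 12 fell (Pdgfrb, limma adjusted p = 0.0277), beside 0.828% of all genes. With the culture as a block 2 fell (Pdgfra and Pdgfrb), beside 12.6%. Those 2 were also lower than Control with HS+LPS in the fit with the block, beside 12.1% of all genes. Their part in the results was not tested. The cultures differed in some of these markers, Lum reading 119 to 188 in culture 1 and 1578 to 1820 in culture 2. The summed fibroblast signal was 31253 to 43301 in Control, 32992 to 37717 with LPS and 33231 to 39739 with HS+LPS. Macrophage markers summed to 351 to 555, 326 to 509 and 354 to 497 in the same order, and 8 to 9 of 12 were above noise. The macrophage genes Itgam, Fcgr1 and Aif1 were at or under the noise level on all 6 arrays. Lyz2 (89.8 to 220), Cd53 (86.9 to 95.8), Csf1r (43.2 to 97.5), Cd68, Laptm5, Adgre1 and Mrc1 were above it on all 6. A part of macrophage RNA in the results was not tested. Of the 9 macrophage markers tested, 0 passed limma in any comparison. With the block 1 was higher for HS+LPS against LPS, beside 6.32% of all genes. Endothelial markers summed to 63.9 to 85.1, 47.7 to 90.9 and 73.4 to 104, with 3 to 5 of 7 above noise. Epithelial markers summed to 89.4 to 140, 117 to 130 and 205 to 220, so that they moved with HS+LPS. In the fit with the culture as a block 2 of 5 tested were higher than with LPS, beside 6.32% of all genes. Without the block 0 were, beside 0.511%. The part of these markers was not tested either. Differences are in log2(intensity + 3.37), which understates changes of dim genes, and the test was limma with Benjamini-Hochberg adjustment over all 12918 genes. The same cultures were used in every group, so the fit with the culture as a block is given where its call differs.

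LPS against Control asks how the family responded to the bacterial signal. After 4 h of LPS the rise in Nfkbiz passed the test. The signal was higher in both cultures for 8 of the 9 genes. No share of all genes was computed for that count, so it is a description only. Nfkbie had the largest difference, 8.37-fold on its brightest probe set. The order of the others depended on the probe set: with the mean of probe sets the log2 difference was 2.63 for Nfkbie, 1.48 for Nfkbia, 1.45 for Nfkb2 and 1.03 for Nfkbiz. Rel moved in opposite directions in the 2 cultures. In the fit without the block 1 of 9 genes rose, beside 0.147% of all genes, and 0 fell, beside 0% of all genes, with 7 of 9 at an unadjusted p under 0.05, beside 4.87%. With the block 7 of 9 rose, beside 2.06% of all genes, and 0 fell, beside 0.72%; Bcl3 and Rel did not pass. The 2 LPS arrays lay above both Control arrays for 7 of 9 genes, beside 13.1% of all genes, and below them for 0, beside 18.3%. The median log2 difference was 1.19 for the 9 genes and -0.05 for all genes tested.

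Nfkbia encodes IkB-alpha, the inhibitor that is remade fastest after a signal. It read 1271 and 1587 in Control cultures 1 and 2, 3228 and 3245 with LPS, and 2402 and 2924 with HS+LPS. Both LPS arrays were above both Control arrays, and the HS+LPS arrays lay between these groups without touching either. The difference of LPS from Control was 2.28-fold (log2 difference 1.19, SE 0.15, 95% interval 0.82 to 1.56, limma adjusted p = 0.0949). With the culture as a block the rise passed (adjusted p = 0.0002, range over the alternatives 1.62e-10 to 0.586).

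Nfkbie (chr17:45555700-45563169 in GRCm38.p6) encodes IkB-epsilon, an inhibitor that acts later than IkB-alpha. Its signal was 28.4 and 64.8 in Control, 470 and 317 with LPS, and 12.5 and 24.7 with HS+LPS. The 3 groups did not overlap, with LPS highest and HS+LPS below Control. LPS was 8.37-fold above Control (log2 difference 3.07, SE 0.46, 95% interval 1.95 to 4.18, limma adjusted p = 0.13). This passed with the block (adjusted p = 0.00155, range over the alternatives 1.27e-10 to 0.754), and the log2 difference was 3.90 in culture 1 and 2.23 in culture 2.

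Nfkbib, which encodes IkB-beta, moved less. It read 126 and 112 in Control, 240 and 174 with LPS, and 142 and 90.9 with HS+LPS. LPS arrays stood above all others, while Control and HS+LPS overlapped. The log2 difference of LPS from Control was 0.76 (SE 0.27, 1.70-fold, limma adjusted p = 0.881), and it passed with the block (adjusted p = 0.0204, range over the alternatives 0.00354 to 1.00).

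**Figure D1:**
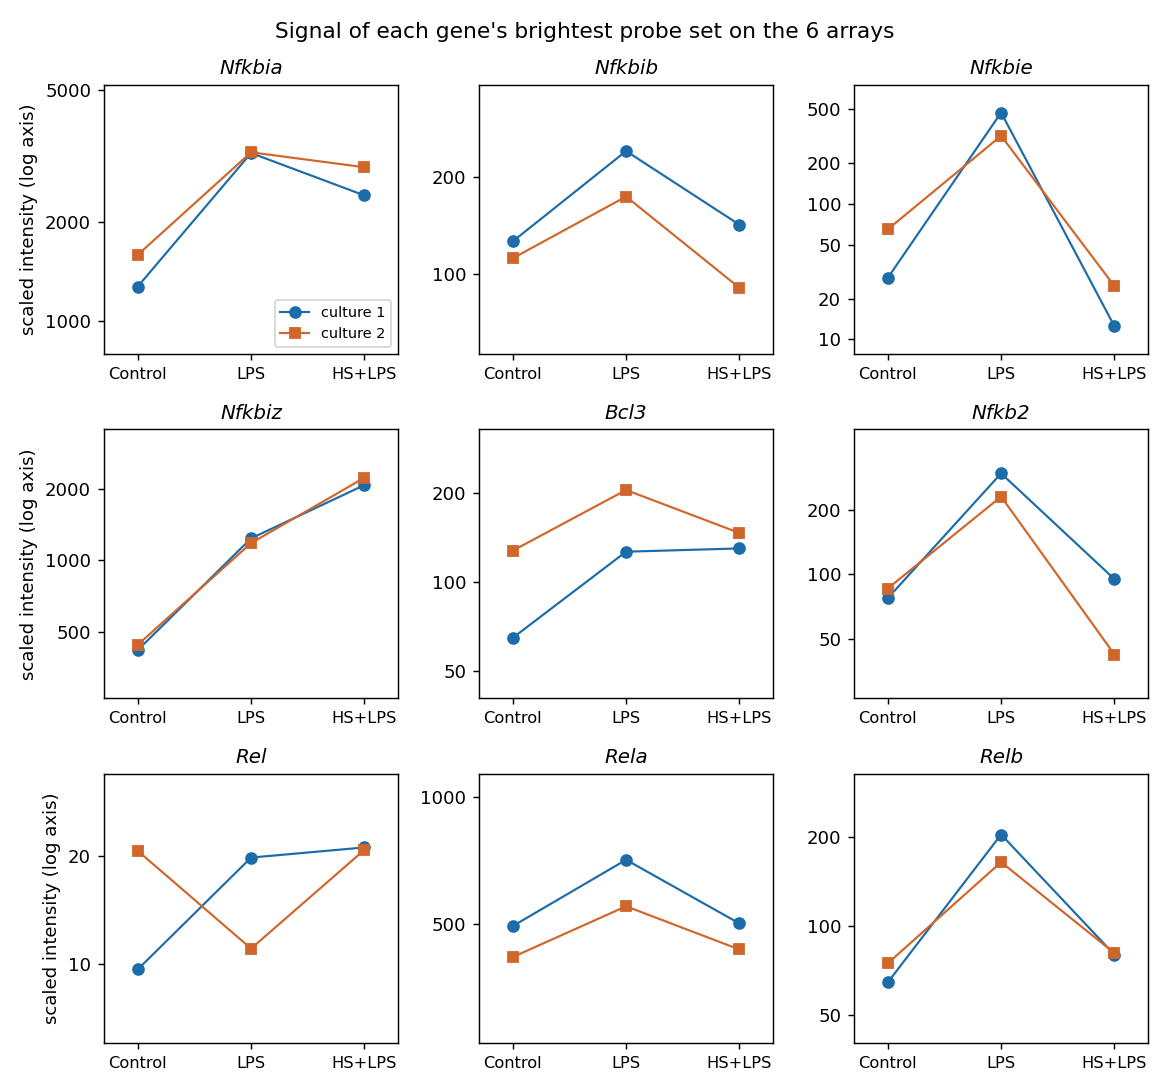
Scaled intensity (log axis, a separate range in each panel) of the brightest probe set of each of the 9 genes in Control, LPS and HS+LPS, with culture 1 as circles and culture 2 as squares joined by lines. Nfkbiz climbed from 417 and 440 through 1239 and 1183 to 2082 and 2235, while Nfkbie, Nfkb2 and Relb peaked with LPS and lay near or below Control with HS+LPS.

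Nfkbiz (chr16:55811375-55838954) encodes IkB-zeta, a nuclear cofactor needed for a subset of secondary inflammatory genes. It read 417 and 440 in Control, 1239 and 1183 with LPS, and 2082 and 2235 with HS+LPS. The groups did not overlap and the cultures differed little within each. LPS raised it 2.81-fold (log2 difference 1.49, SE 0.10, 95% interval 1.24 to 1.75, limma adjusted p = 0.0145). This Nfkbiz call held in 10 of 19 alternatives. It was lost with no intensity trend (limma adjusted p = 0.0724) and with only the 2 groups compared (0.0525). The call was lost without any single array (adjusted p 0.0554 to 0.206), and with the mean of its 3 probe sets the log2 difference was 1.03 (adjusted p = 0.26, range over all alternatives 1.2e-11 to 0.26). Bcl3 encodes the other nuclear IkB protein and read 64.9 and 128 in Control, 127 and 204 with LPS, and 130 and 146 with HS+LPS. Culture 2 was higher than culture 1 in each group, and the LPS and Control groups overlapped. The log2 difference of LPS from Control was 0.80 (SE 0.36, limma adjusted p = 0.999), and it did not pass with the block (adjusted p = 0.0535, range over the alternatives 0.00608 to 1.00).

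Among the subunits, Nfkb2 encodes p100, which is both an inhibitor and the precursor of p52. It read 77.5 and 86.0 in Control, 294 and 230 with LPS, and 95.04 and 42.4 with HS+LPS. LPS stood above the other groups, which overlapped. The LPS difference was 3.10-fold (log2 difference 1.63, SE 0.37, limma adjusted p = 0.415) and passed with the block (adjusted p = 0.00884, range over the alternatives 1.83e-06 to 1.00). Relb (chr7:19606217-19629438) encodes the usual partner of p52. It read 64.5 and 74.8 in Control, 203 and 164 with LPS, and 79.9 and 80.9 with HS+LPS. The LPS arrays were highest, and HS+LPS lay just above Control with no overlap. Its LPS difference was 2.55-fold (log2 difference 1.35, SE 0.18, limma adjusted p = 0.0953), and this passed with the block (adjusted p = 0.00182, range over the alternatives 1.96e-06 to 0.665).

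Rela encodes p65, the main activating subunit. It read 493 and 416 in Control, 709 and 550 with LPS, and 500.3 and 434 with HS+LPS. LPS arrays were above the others, and Control and HS+LPS overlapped. The LPS difference was 1.37-fold (log2 difference 0.46, SE 0.18, limma adjusted p = 0.968), and it passed with the block (adjusted p = 0.0221, range over the alternatives 0.0214 to 1.00). Rel encodes c-Rel, a subunit best known from lymphoid and myeloid cells. It was dim, at 9.67 and 20.6 in Control, 19.8 and 11.05 with LPS, and 21.1 and 20.8 with HS+LPS. Each value was above its array's noise level, but the LPS difference was 0.83 in culture 1 and -0.74 in culture 2 on the log2 scale (95% interval of the mean difference -0.94 to 1.03, limma adjusted p = 0.999).

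**Figure D2:**
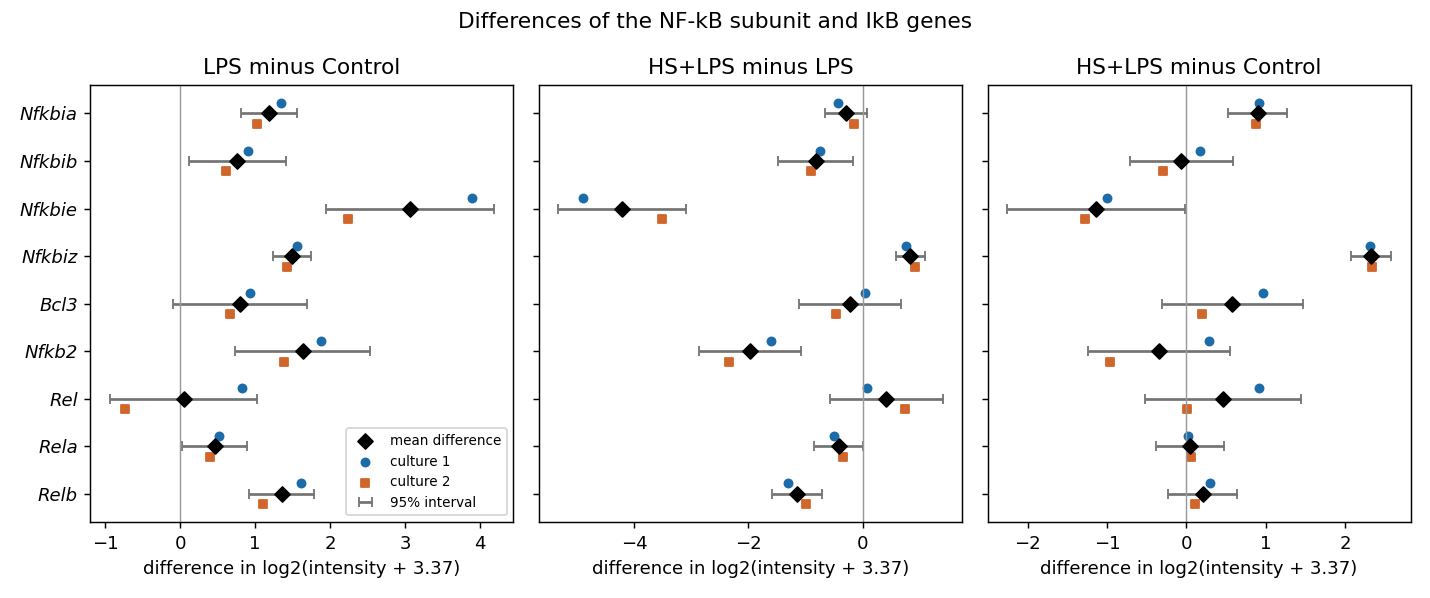
Differences in log2(intensity + 3.37) for the 9 genes in the 3 comparisons, as the mean (diamond) with its 95% interval (bar) and each culture's own difference (circle, culture 1, and square, culture 2). In HS+LPS minus LPS, Nfkbie sits at -4.21 and Nfkbiz at 0.83, with both cultures of each gene on the same side of 0.

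HS+LPS against LPS asks what prior heat did to these levels. Nfkbie and Relb fell and Nfkbiz rose in the fit without the block, and the other 6 genes did not pass. Of these, Nfkbia, Bcl3 and Rel did not pass with the block either, with log2 differences of -0.29, -0.22 and 0.41. In the fit without the block 2 of 9 genes fell, beside 0.828% of all genes, and 1 of 9 rose, beside 0.511%. An unadjusted p under 0.05 was found for 5 of 9, beside 16.8%. With the block 5 of 9 fell (Nfkbib, Nfkbie, Nfkb2, Rela and Relb), beside 12.6% of all genes, and 1 rose, beside 6.32%. HS+LPS arrays lay below both LPS arrays for 6 of 9 genes and above them for 2, beside 28.8% and 17.9% of all genes. The median log2 difference was -0.42 for the 9 genes and -0.05 for all genes.

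Nfkbie was 18.4-fold lower with HS+LPS than with LPS (log2 difference -4.21, SE 0.46, 95% interval -5.32 to -3.09, limma adjusted p = 0.0235). It fell in both cultures, with log2 differences of -4.90 and -3.51. The adjusted p was 0.158 without LPS culture 1, 0.131 without LPS culture 2, 0.0981 without HS+LPS culture 1 and 0.11 without HS+LPS culture 2 (range over all alternatives 4.58e-14 to 0.158), with log2 differences of -4.62 to -3.79. Relb fell 2.22-fold (log2 difference -1.15, SE 0.18, limma adjusted p = 0.0494). That call was at the threshold and held in 6 of 19 alternatives. It was lost without any single array (adjusted p 0.0945 to 0.242) and with a pseudocount of 1 (0.0523), no filter (0.0646), median centring (0.0657) and quantile normalization (0.0741), and it passed with the block (0.00161). The range over all alternatives was 1.05e-05 to 0.242.

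Nfkb2 was 3.92-fold lower (log2 difference -1.97, SE 0.37, limma adjusted p = 0.073, or 0.00109 with the block, range over the alternatives 2.02e-08 to 0.311). Nfkbib was 1.77-fold lower (log2 difference -0.83, adjusted p = 0.206, with the block 0.00446, range over the alternatives 0.000434 to 0.542). Rela was 1.34-fold lower (log2 difference -0.42, adjusted p = 0.307, with the block 0.01, range over the alternatives 0.01 to 0.66). For these 3 genes the log2 difference was negative in both cultures.

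Nfkbiz rose a further 1.78-fold above its LPS level (log2 difference 0.83, SE 0.10, 95% interval 0.58 to 1.09, limma adjusted p = 0.0303). The Nfkbiz call held in 9 of 19 alternatives. It was lost with no intensity trend (limma adjusted p = 0.0866) and with only the 2 groups compared (0.0636). Without any single array the adjusted p was 0.0681 to 0.234, with median centring 0.0668 and with the mean of its probe sets 0.0668. With the block it was 0.000247, and over all alternatives 7.2e-07 to 0.234. Nfkbia was 1.22-fold lower than with LPS (95% interval of the log2 difference -0.66 to 0.08, limma adjusted p = 0.409, with the block 0.0521, range over the alternatives 0.00171 to 0.741). Bcl3 differed by 0.04 in culture 1 and -0.47 in culture 2 on the log2 scale (95% interval of the mean -1.11 to 0.67). Rel had a log2 difference of 0.41 (95% interval -0.57 to 1.40).

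HS+LPS against Control shows where the levels stood after both treatments. Nfkbiz rose 5.01-fold above Control (log2 difference 2.32, SE 0.10, 95% interval 2.07 to 2.58, limma adjusted p = 0.001), and this call held in all 19 alternatives, at adjusted p 3.07e-16 to 0.0329. Without the block 1 of 9 genes rose, beside 0.17% of all genes, and 0 fell, beside 0.00774%; 3 of 9 had an unadjusted p under 0.05, beside 16.2%. With the block 2 of 9 rose (Nfkbia and Nfkbiz), beside 5.09%, and 1 fell (Nfkbie), beside 12.1%. HS+LPS arrays lay above both Control arrays for 5 of 9 genes and below them for 1, beside 14.3% and 31.1% of all genes. The median log2 difference was 0.20 for the 9 genes and -0.09 for all genes.

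Nfkbia was 1.86-fold above Control (log2 difference 0.90, SE 0.15, limma adjusted p = 0.0816, or 0.000566 with the block, range over the alternatives 3.79e-08 to 0.319), at 0.92 in culture 1 and 0.88 in culture 2. Nfkbie was 2.20-fold below Control (log2 difference -1.14, SE 0.46, adjusted p = 0.3, or 0.0488 with the block, range over the alternatives 0.000994 to 0.733). Its log2 difference was -0.59 without Control culture 2, -0.73 without HS+LPS culture 1, -1.55 without HS+LPS culture 2 and -1.69 without Control culture 1. The call with the block was lost when quantile normalization was added (adjusted p = 0.0876). The other 6 genes did not pass in either fit. In the fit without the block their 95% intervals of the log2 difference were -0.39 to 0.47 for Rela, -0.23 to 0.64 for Relb and -0.71 to 0.59 for Nfkbib. Those of Nfkb2, Bcl3 and Rel were -1.23 to 0.55, -0.31 to 1.47 and -0.53 to 1.44. The 3 comparisons share arrays, so these values stand side by side and are not independent of each other.

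Further probe sets of 4 genes gave a check, fitted across all probe sets above the filter. Of the 5 probe sets of Nfkbia, the brightest gave 2.28-fold for LPS against Control, 3 of middle brightness gave 3.45-fold, 3.98-fold and 3.45-fold, and the dimmest 1.59-fold. For HS+LPS against LPS the log2 differences in the same order were -0.29, -0.03, -0.12, -0.39 and -0.32. The one with the 3.98-fold difference read 241 and 307 in Control, 989 and 1207 with LPS, and 830 and 1219 with HS+LPS, so its HS+LPS and LPS arrays overlapped. None of the 5 passed that comparison in limma without the block (adjusted p 0.476 to 0.968), and with it the one at -0.39 fell (adjusted p = 0.0195). Against Control, HS+LPS was 1.86-fold higher on the brightest, 3.38-fold, 3.67-fold and 2.64-fold on the 3 of middle brightness and 1.27-fold on the dimmest.

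The second probe set of Nfkbie read 35.7 and 26.8 in Control, 185 and 126 with LPS, and 18.4 and 13.4 with HS+LPS. It was 4.55-fold higher with LPS than in Control (limma adjusted p = 0.128, with the block 0.0003), below the 8.37-fold of the brightest probe set. It fell 8.18-fold from LPS to HS+LPS (limma adjusted p = 0.02), below the 18.4-fold of the brightest probe set. Its log2 difference for HS+LPS against Control was -0.85 (limma adjusted p = 0.293, with the block 0.0189). The second of Nfkbiz read 97.7 and 126, then 336 and 306, then 792 and 800.4, and rose 2.47-fold from LPS to HS+LPS (limma adjusted p = 0.0401). The third had a log2 difference of 0.10 (SE 0.53) with LPS and was 2.47-fold higher with HS+LPS than with LPS (adjusted p = 0.365, with the block 0.00263). Against Control, HS+LPS was 6.99-fold higher on the second (limma adjusted p = 0.00325). On the third it was 2.64-fold higher (limma adjusted p = 0.342, with the block 0.00243). The brightest probe sets of Nfkbie and Nfkbib are of a type that can be shared by several transcripts, and the second of Nfkb2 of a type open to cross-hybridisation. That of Nfkb2 had a log2 difference of 1.27 for LPS against Control (limma adjusted p = 0.9997, with the block 0.0141). For HS+LPS against LPS it was -0.82 (limma adjusted p = 0.477, with the block 0.0308). The difference of this second probe set of Nfkb2 for HS+LPS against Control was 0.44, against -0.34 on the brightest, and neither passed. The second probe set of Nfkbib, at 0.997 to 11.8, was under the filter.

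**Figure D3:**
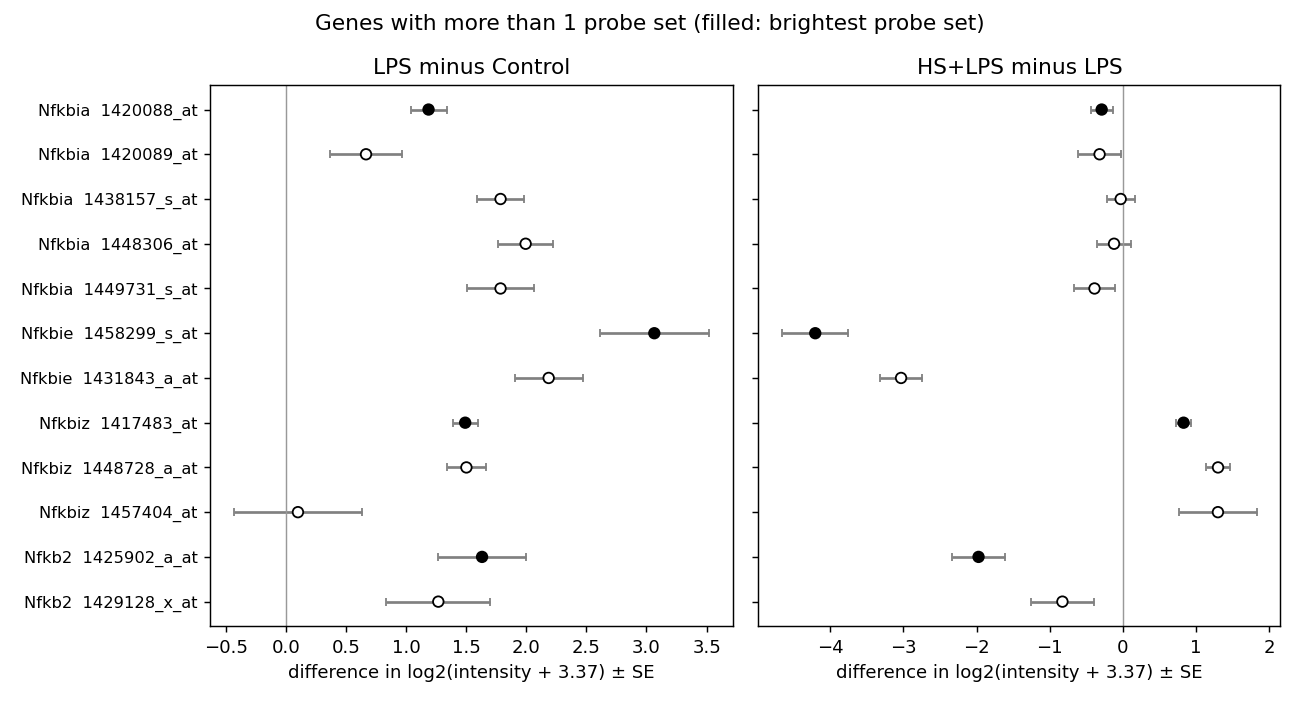
Differences in log2(intensity + 3.37) with their SE for each probe set above the filter of the 4 genes with more than 1, for LPS minus Control and HS+LPS minus LPS. Filled points are the brightest probe set of a gene. Both Nfkbie probe sets lie at -4.21 and -3.03 in HS+LPS minus LPS, the 3 Nfkbiz probe sets at 0.83 to 1.30, and the 5 Nfkbia probe sets between -0.39 and -0.03.

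Of the 22 tested genes (of 27 listed) that carry the signal from the receptor to IkB, the upstream part of the pathway, 0 passed for LPS against Control in limma (5 at an unadjusted p under 0.05, and 1 higher with the block), with a median log2 difference of 0.16. Of all genes 4.87% had such an unadjusted p and 2.06% were higher with the block. For HS+LPS against LPS 2 fell and 0 rose (7 lower with the block), beside 0.828% and 12.6% of all genes that fell without and with the block, at a median of -0.25. The 2 were Cd14, the co-receptor that hands LPS to the receptor, from 105 ± 17.3 to 35.0 ± 0.0575 (2.82-fold lower, limma adjusted p = 0.0306), and Ikbke, an IkB kinase relative that is itself induced by LPS, from 190 ± 6.16 to 36.1 ± 9.73 (4.97-fold lower, adjusted p = 0.0158). For HS+LPS against Control 0 of 22 passed in limma (4 at an unadjusted p under 0.05, and 2 higher and 4 lower with the block), beside 16.2%, 5.09% and 12.1% of all genes, at a median of -0.12.

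The receptor gene Tlr4 and, of the kinase complex that acts on IkB, Ikbkb and Ikbkg did not pass for HS+LPS against LPS. Chuk, also of that complex, was not analysed here. Tlr4, the LPS receptor, read 85.1 ± 12.8 in Control, 123 ± 7.58 with LPS and 157 ± 14.1 with HS+LPS. Its difference from Control with HS+LPS was 1.82-fold (limma adjusted p = 0.11, with the block 0.00533, range over the alternatives 0.000411 to 0.506). Ikbkb, the kinase that phosphorylates the classical IkB proteins, read 226 ± 15.3, 249 ± 16.2 and 216 ± 19.8. Ikbkg, the regulatory subunit of that complex, read 177 ± 69.2, 159 ± 55.2 and 140 ± 89.2.

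Of 18 tested genes that feed back on NF-kB (of 19 listed), 3 rose (Tnfaip3, Tnip1 and Zc3h12a) and 15 did not pass with LPS (5 higher and 1 lower with the block), beside 0.147% of all genes (2.06% and 0.72%), at a median log2 difference of 0.17. From LPS to HS+LPS 3 fell and 15 did not pass (7 lower with the block), beside 0.828% of all genes (12.6%), at a median of -0.27. The 3 were Tnip1, which binds the ubiquitin editor A20, Birc3 and Birc2, ubiquitin ligases of the TNF receptor complex. Birc2 went from 170 ± 3.43 to 50.1 ± 6.25 (3.25-fold lower, limma adjusted p = 0.0214) and Birc3 from 301 ± 42.0 to 41.6 ± 0.49 (6.73-fold lower, adjusted p = 0.0342). The RNase Zc3h12a, which breaks down mRNAs of cytokines, was 46.9 ± 0.75 in Control, 387 ± 33.3 with LPS and 344 ± 30.3 with HS+LPS. It was the 1 gene of 18 that rose for HS+LPS against Control (6.89-fold, limma adjusted p = 0.00188; 3 higher and 2 lower with the block), beside 0.17% of all genes (5.09% and 12.1%), at a list median of 0.02.

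Of 32 tested NF-kB target genes (of 34 listed), 8 rose with LPS and 24 did not pass (27 higher with the block), beside 0.147% of all genes (2.06%), with a median log2 difference of 2.21. The lists were chosen with earlier results of these data known, so their counts and medians beside all genes are a description. From LPS to HS+LPS 12 fell and 20 did not pass (24 lower and 1 higher with the block), beside 0.828% of all genes (12.6% and 6.32%), at a median of -1.84. For HS+LPS against Control 0 passed in limma (13 at an unadjusted p under 0.05, and 12 higher and 3 lower with the block), beside 16.2%, 5.09% and 12.1% of all genes, at a median of 0.24. Ccl7, a monocyte chemokine, rose from 614 ± 3.73 to 1832 ± 33.6 with LPS and fell to 463 ± 32.2 with HS+LPS (limma adjusted p = 0.0145 and 0.00273). Lcn2, which binds bacterial siderophores, fell from 640.2 ± 141 to 177 ± 35.6 (3.57-fold, limma adjusted p = 0.0494), and Il1b, a fever-inducing cytokine, from 83.5 ± 23.0 to 11.2 ± 3.42 (5.95-fold, adjusted p = 0.0248). Nos2, the inducible nitric oxide synthase, was under noise in Control and with HS+LPS. It rose at least 6.88-fold with LPS (limma adjusted p = 0.0170). With HS+LPS it was at least 6.66-fold lower than with LPS (limma adjusted p = 0.00835). The other genes of this list that passed were Ccl2, Ccl5, Cxcl2, Cxcl10, Icam1 and Tlr2 in both of these comparisons, and Tnf and Vcam1 in the second. Over the alternatives, the highest adjusted p of each gene of the 3 lists that passed ran from 0.0454 (Zc3h12a, HS+LPS against Control) to 0.37 (Tnfaip3, LPS against Control). Only that Zc3h12a call and that of Tlr2 for HS+LPS against LPS (highest 0.0474) held in every alternative.

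**Figure D4:**
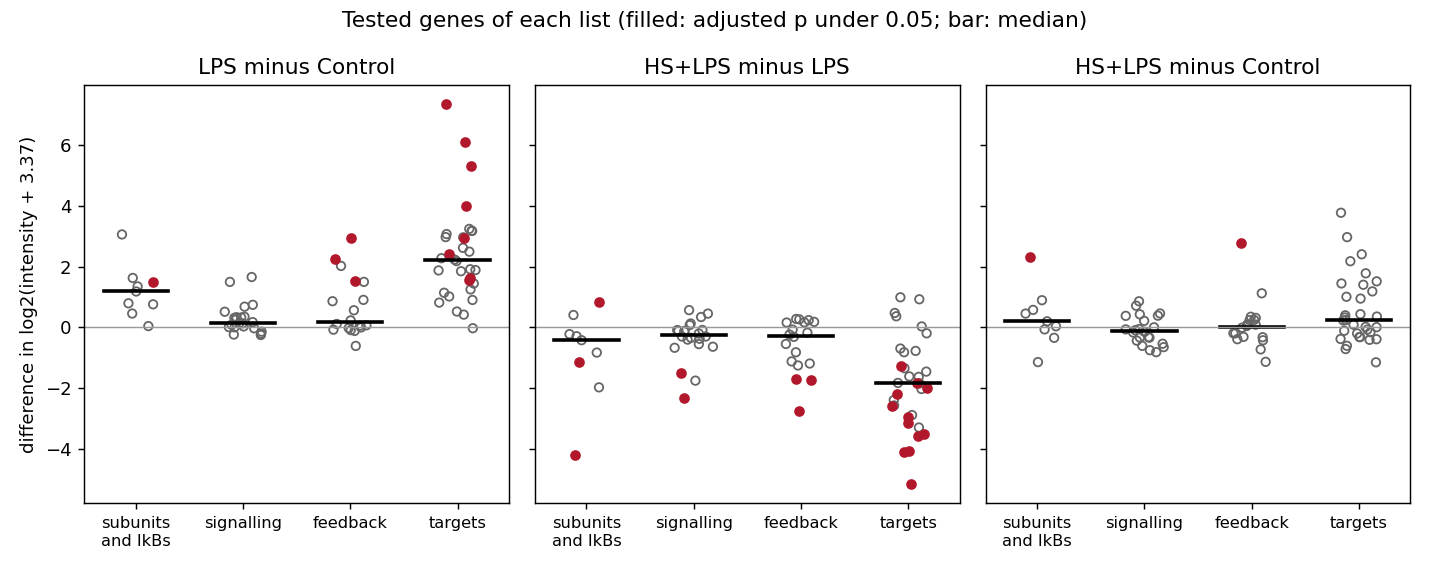
Difference in log2(intensity + 3.37) for each tested gene of the family (9), of the signalling (22) and feedback (18) genes and of the NF-kB targets (32) in the 3 comparisons. Filled points passed limma at an adjusted p under 0.05 and bars are medians. The members and lists were chosen with earlier results of these data known. The target median is 2.21 with LPS, -1.84 for HS+LPS minus LPS and 0.24 for HS+LPS minus Control.

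The genes whose profiles over the 6 arrays were most like those of the 3 most variable members were found by the root mean square difference between profiles, each centred on its own mean log2 signal. For Nfkbie these were Slc7a2, a transporter of cationic amino acids (0.44), the receptor Tlr2 (0.53) and the chemokine Ccl3 (0.58), which was at or under noise in Control and HS+LPS. Slc7a2 read 136 and 180 in Control, 1098 and 958 with LPS, and 76.4 and 135 with HS+LPS. For Nfkb2 they were the chemokine Cxcl16 (0.25), Ikbke (0.28) and Tnip1 (0.28). Cxcl16 read 68.9 and 49.2, then 268 and 220.1, then 74.0 and 42.2. For Nfkbiz they were Nfkbid, which encodes another nuclear IkB protein (0.33), Errfi1, an inhibitor of the EGF receptor (0.38), and the transcription factor Ets1 (0.38). Nfkbid read 10.1 and 10.2 in Control, 19.7 and 21.1 with LPS, and 49.2 and 74.8 with HS+LPS, so that this dim gene, like Nfkbiz, was highest on the HS+LPS arrays. Likeness was measured on the same arrays that defined the pattern and is a description.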

How the data were processed

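Arrays were hybridised with biotin-labelled cRNA made from total RNA, per the labels' protocols. The deposited values are linear intensities, a value for each probe set. On each array the mean after trimming 2% at each end was 100.001, so the values carry a scaling to a common mean, which hides differences in total mRNA. The sources used here name neither the software nor the scaling method. Gene names were taken from the array annotation (34958 probe sets with 1 symbol, 932 with several), updated through Entrez identifiers in the RefSeq table of GRCm38.p6, where 204 were not found and 0 symbols changed.

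The tests used log2(intensity + 3.37), the pseudocount being the 25th percentile of all values. Control probe sets were left out, as were those whose mean log2 signal lay below the 40th percentile, and the brightest remaining probe set stood for its gene. Limma 3.58.1 in R 4.3.3 (lmFit, eBayes with an intensity trend) was fitted to all 6 arrays in 3 groups, with 3 residual degrees of freedom and an adjusted p under 0.05 as threshold. An "at least" fold sets the bright group against the noise level, on the same log2 scale, where both arrays of the other group were at or under noise. Per the labels each culture number is 1 embryo, so the numbers pair the arrays across groups. The sources used here name no statistical model, and the culture was left out of this fit and added as a block in an alternative, with 2 residual degrees of freedom. Across genes, the departures of same-numbered arrays from their group means had a correlation of 0.62 for LPS with Control, 0.57 for HS+LPS with Control and 0.54 for HS+LPS with LPS. The median SE was 0.23 without the block and 0.15 with it. With 2 cultures the p-values rest on little replication. The number of arrays limits the precision.

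All 9 members were named. From the lists, genes that passed and Tlr4, Ikbkb and Ikbkg were named, and Chuk was not analysed here. The 3 genes most like each of the 3 most variable members were named. The members and lists were chosen with earlier results of these data known. The script was tested on simulated data. Protein sequences were not used here.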

Additional observations from a re-analysis of the deposited data

How the results depend on the processing

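LPS against Control gave 19 genes past the threshold (1 of the 9 family members), HS+LPS against LPS 173 (3) and HS+LPS against Control 23 (1). With the replicate block, which pairs the arrays of a culture, these became 359 (7), 2443 (6) and 2219 (3), with the block and median centring 488 (8), 2410 (7) and 2280 (4), and with the block and quantile normalization 352 (7), 2122 (7) and 1825 (3). The last 2 settings were chosen after seeing the data. With no intensity trend the counts were 5 (0), 84 (1) and 13 (1), and in fits of only the 2 groups compared 0 (0), 76 (1) and 14 (1). Median centring left 1 member past the threshold for HS+LPS against LPS. The count for HS+LPS against Control was 58 genes with a pseudocount of 16, 37 with a 60th percentile filter and 59 with median centring. Leaving out 1 array at a time gave 0 to 4 genes (0 members) for LPS against Control, 8 to 76 (0 to 1) for HS+LPS against LPS and 8 to 14 (1) for HS+LPS against Control. No called member changed sign. Sign changes were seen in members that did not pass. Against Control, with HS+LPS, Nfkbib became 0.042 with quantile normalization, with and without the block, and Nfkb2 0.051 with the mean of probe sets. Without 1 array, Rel ran from -0.39 to 0.49 for LPS against Control and Bcl3 from -0.56 to 0.12 for HS+LPS against LPS. In HS+LPS against Control, Nfkbib ran from -0.38 to 0.25, Nfkb2 from -0.89 to 0.21 and Rela from -0.082 to 0.16. Fewer arrays leave fewer residual degrees of freedom, and a lone array is then assumed to vary like the other groups. The cause of the other changes was not tested. The median of all genes moved by less than 0.1 between scalings. Rel, at 9.67 to 21.1, lay close to the noise level, which limits its precision.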
